A study of Homo sapiens with 2 samples.

Results

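RAB GTPases are small membrane-bound proteins that give each compartment of the secretory and endocytic system its identity. In the GTP-bound state a RAB recruits motors, tethers and sorting factors to a vesicle, and it is switched on by exchange factors and off by GTPase activating proteins. The family was taken as every gene name made of RAB, a number and at most 1 letter from A to D, which gave 58 of the 30484 gene names on the array, measured by 101 probes. The family was picked because RAB22A, RAB10 and RAB40B are reported targets of miR-204, a label that was taken over and not examined here. RefSeq (GRCh38.p14) lists 63 protein-coding genes with a name of this form, of which 58 were among the members, with RAB39 now named RAB39A.

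Both groups were HEK-293 cells, which derive from human embryonic kidney, grown in medium with 10% serum and harvested 48 h after transfection. The control cells received scramble oligos and the miR-204 cells a miR-204 mimic, with 75 nM stated for the transfection. The RNAs were hybridized together on 2-colour Agilent arrays, with the control RNA in Cy3 and the miR-204 RNA in Cy5 on the first array and the dyes exchanged on the dye-swap array. No second transfection is named, so the 2 arrays were counted as 1 replicate and the spread between cultures is unknown. No test across the conditions was made, apart from the methods' t-test run as an alternative.

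A microRNA lowers its target mRNAs mainly through its seed, bases 2 to 8, which pairs with matching sites in the mRNA. The mature miR-204 sequences of RefSeq (GRCh38.p14) are shown because the mimic stands for this microRNA, although the sequence of the mimic itself is not given in the sources used here. The seed is in capitals. The 5p strand lies on chr9:70810031-70810052, minus strand, and the 3p strand on chr9:70809993-70810013, minus strand. The 5p strand of miR-211, on chr15:31065095-31065116, minus strand, has the same seed. Matches to the seed in RAB mRNAs were not analysed here.
hsa-miR-204-5p: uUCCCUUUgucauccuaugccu
hsa-miR-211-5p: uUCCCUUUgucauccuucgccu
hsa-miR-204-3p: gCUGGGAAggcaaagggacgu

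A gene was counted when at least 1 of its probes was well above background in 1 of the RNAs, control or miR-204, on both arrays. Of the 58 members, 48 were counted, by 85 probes, against 18585 of all gene names. Each array gave a log2 ratio of miR-204 over control for each probe. Ratios were averaged over the counted probes of a gene and then over the arrays, and a gene was called at 1.5-fold or 2-fold in the mean where both arrays had the same sign. The 10 members not counted were RAB3C, RAB7B, RAB17, RAB25, RAB27B, RAB30, RAB33A, RAB37, RAB39 and RAB42, of which RAB3C and RAB27B serve regulated secretion and RAB25 belongs to the recycling RABs of epithelia. Their 12 probes had processed signals of at most 30.4, and 5 of the 12 were well above background in at least 1 channel.

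The whole array had 25270 counted probes, of which 23159 were detected in all 4 channels, that is, well above background in each. Between 25284 and 29024 spots were well above background in a channel, the fewest in that of miR-204 on the dye-swap array. Of the 85 counted RAB probes, 79 were detected in all 4. The other 6 lacked such a signal in the miR-204 channel of the dye-swap array, and so were counted through the control RNA alone. The miR-204 channel of the first array had 1 such probe, and the control channels had 0. Of 10 genes listed for HEK-293 cells, 9 were detected in all 4 channels by at least 1 probe, PAX2 being the exception.

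In miR-204 overexpressing cells 3 of the 48 counted RAB genes fell by at least 1.5-fold and none rose. The 3 were RAB5B and RAB22A, both of early endosomes, and RAB13, which delivers cargo to tight junctions. Over all counted gene names 2.06% were lower by this rule and 1.44% higher. At 2-fold no RAB gene passed in either direction, where 0.452% of all gene names were lower and 0.151% higher. Of the 3, RAB22A and RAB13 had every counted probe detected in all 4 channels, and RAB5B did not. RAB5B passed through a probe that was counted by its control RNA alone. With detection in all 4 channels required, 2 of 46 RAB genes were lower, beside 0.99% of all gene names. None was higher, beside 1.33% of all. On the first array the log2 ratios were -0.80 for RAB22A, -1.11 for RAB13 and -0.29 for RAB5B. On the dye-swap array they were -0.56, -0.12 and -1.27. With the fold required on each array, 0 RAB genes were lower, and no share of all gene names is given for that rule. Since RNA was taken from whole cultures, fewer cells of a kind and less RNA per cell cannot be told apart.

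RAB genes kept a direction from array to array about as often as other genes. A total of 15 of the 48 had a ratio below 0 on both arrays, which 22.8% of all counted gene names had, and 8 were above 0 on both, which 24.5% of all had. The other 25, or 52.1%, had opposite signs, as did 52.7% of all counted gene names, 11 of the 25 being above 0 on the first array and below 0 on the dye-swap array, and 14 the reverse. The median log2 ratio of the 48 was -0.10 on the first array, -0.03 on the dye-swap array and -0.09 in the mean, beside medians of 0.02, -0.004 and 0.002 over all counted gene names. The means of the members ran from -0.78 to 0.33, with an SD over genes of 0.25, close to the 0.26 over all gene names. Across the 48 genes, which are not independent replicates, Pearson's r between the arrays was 0.04 and Spearman's rho was -0.02, and over all counted gene names these were -0.02 and -0.05. The median distance of either array from the mean of both was 0.14 for the members and 0.16 for all. For scale, 143 counted probes of the array were spotted 10 times, and the median SD between their spots was 0.05 on either array, while each RAB probe was spotted once.

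**Figure D1:**
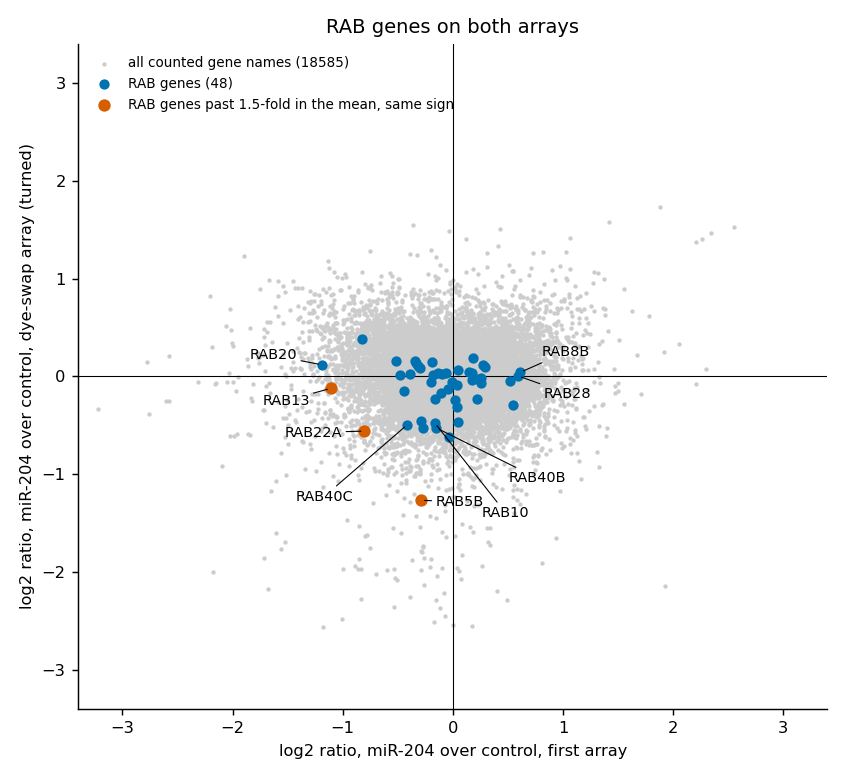
Log2 ratio of miR-204 over control on the first array (horizontal axis) and, after turning its sign, on the dye-swap array (vertical axis), with each grey point a counted gene name, each blue point a RAB gene and each orange point a RAB gene called at 1.5-fold. RAB22A lies at -0.80 and -0.56, whereas RAB13 is low mainly on the first array and RAB5B mainly on the dye-swap array.

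Among the 3 reported targets, RAB22A had the lowest ratio. RAB22A acts on early and recycling endosomes and is related to RAB5. Its first probe, A_23_P79889, lies on chromosome 20 of hg18, the build of the files, from 56368866 to 56368925 on the plus strand. Its processed signal was 1154 in control and 672 in miR-204 RNA on the first array, and 768 and 489 on the dye-swap array. The miR-204 signal was the lower on each array, and the log2 ratios were -0.78 and -0.65. Of the 23159 probes detected in all 4 channels, 38 were as low on both arrays, and 0.769% had a mean at or below that of this probe.

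The other RAB22A probe, A_32_P179258, lies 5712 bases downstream, from 56374578 to 56374637. Its signal was 77.2 in control and 43.4 in miR-204 RNA on the first array, and 60.7 and 44.2 on the dye-swap array. Here too the miR-204 signal was the lower on each array, with log2 ratios of -0.83 and -0.47, and 83 probes were as low on both. The gene mean was -0.68, a 1.60-fold lower level, and 1.47% of counted gene names had a mean at or below it. Of the 5064 gene names with more than 1 counted probe, 6 had all their probe and array values at or below -0.47, the highest of the 4 values of RAB22A. RAB22A is 1 of these 6, which was fixed in advance because the limit is its own value. The count was made in the setting of the report only and is a description, not a test. Which part of the transcript either probe covers, an exon of the coding region or a UTR, is not annotated in the sources used here.

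RAB10, which carries vesicles from the Golgi and from endosomes to the plasma membrane, including those with the glucose transporter GLUT4, gave different values with its 2 probes. Both lie on the plus strand of chromosome 2 of hg18 and are 9258 bases apart. The upstream probe A_24_P319675, from 26204244 to 26204303, had signals of 475 in control and 514 in miR-204 RNA on the first array, and 394 and 319 on the dye-swap array. Its log2 ratios were 0.13 and -0.31, of opposite sign. The downstream probe A_23_P165879, from 26213502 to 26213561, had signals of 2578 and 1846 on the first array, and 1795 and 1147 on the dye-swap array. This probe was lower in the miR-204 RNA on both arrays, with log2 ratios of -0.46 and -0.64, and 71 of the 23159 probes were as low on both. The gene mean was -0.32, short of 1.5-fold, with 9.36% of gene names at or below it.

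RAB40B is a RAB with a SOCS box, the part through which RAB40 proteins join a ubiquitin ligase. Its 1 probe, A_23_P129801, lies on the minus strand of chromosome 17 of hg18 from 78208805 to 78208864. The signal was 1086 in control and 967 in miR-204 RNA on the first array, and 891 and 621 on the dye-swap array. The difference was in the same direction on both arrays but unequal in size, with log2 ratios of -0.15 and -0.53. The mean, -0.34, did not reach 1.5-fold, with 8.41% of gene names at or below it.

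**Figure D2:**
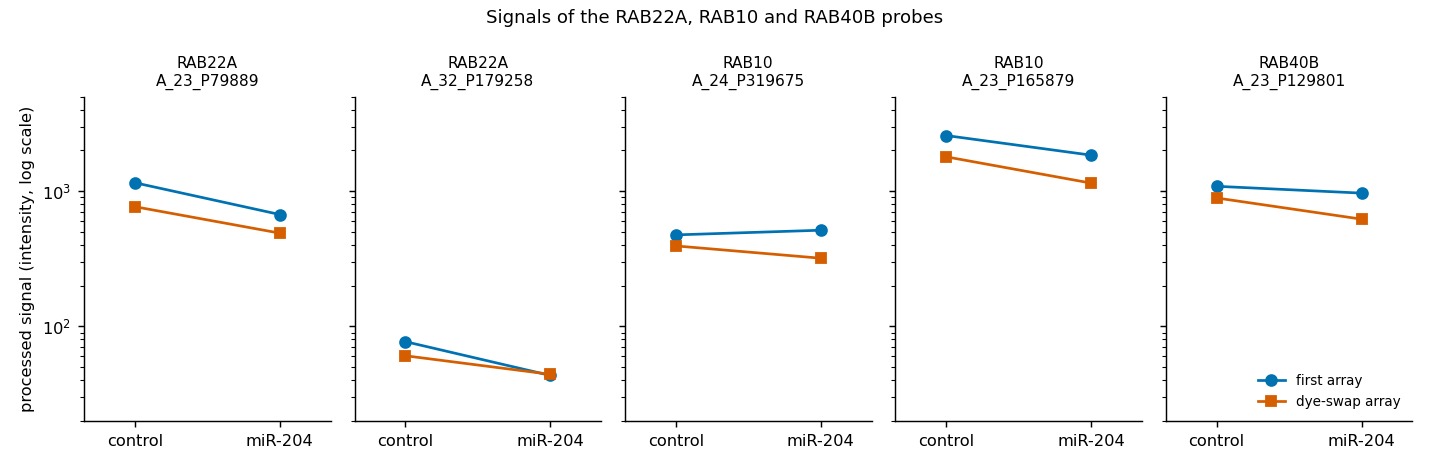
Processed signals (log axis) of both RNAs on the first array (blue circles) and the dye-swap array (orange squares), for the 5 probes of RAB22A, RAB10 and RAB40B, with lines joining the RNAs of 1 array. All lines go down except that of the RAB10 probe A_24_P319675 on the first array, which goes from 475 to 514.

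RAB5B, 1 of the 3 RAB5 isoforms that organize homotypic fusion of early endosomes, had the lowest mean of the family, -0.78, and this value came from 1 of its 2 probes. The probe A_23_P162238, on chromosome 12 of hg18 from 54673058 to 54673117, had signals of 31.6 in control and 23.9 in miR-204 RNA on the first array, and 22.5 and 6.07 on the dye-swap array. The last of these was not well above background, so the miR-204 RNA was measured on 1 of 2 arrays, and the log2 ratios were -0.43 and -2.45. The other probe, A_23_P410998, from 54674293 to 54674352, was detected in all 4 channels. Its signals were 408 and 363 on the first array and 260 and 247 on the dye-swap array, which gave ratios of -0.15 and -0.08. Over that probe alone RAB5B was at -0.12 and was not called.

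RAB13 was low on 1 array. Its probe A_23_P46369 maps to the minus strand of chromosome 1 of hg18 between 152221906 and 152222375, a span of 470 bases for a probe of 60. The signal was 433 in control and 200 in miR-204 RNA on the first array, and 327 and 301 on the dye-swap array. The log2 ratios were -1.11 and -0.12, with a mean of -0.62. On the dye-swap array alone 31.5% of gene names had a ratio at or below that of RAB13.

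Next in the order of the means came RAB20, RAB40C and RAB12, none of which was called. RAB20, which acts on endosomes and phagosomes, had signals of 45.3 in control and 20.2 in miR-204 RNA on the first array, and 21.7 and 22.2 on the dye-swap array, the last not well above background. Its log2 ratios of -1.19 and 0.12 had opposite signs. RAB40C had ratios of -0.41 and -0.49 from 1 probe, with signals of 98.3 and 73.1 on the first array and 48.6 and 34.1 on the dye-swap array. Those ratios were alike on both arrays, but the miR-204 signal of the dye-swap array was again not well above background. With normexp background correction and loess, an alternative described below, the RAB40C ratios were -0.28 and 0.05, of opposite sign. The part of that channel in these values was not tested. RAB12 had ratios of -0.27 and -0.53. Over its probe in all 4 channels RAB12 was at -0.15.

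Probes of a gene could differ as much as genes did. Of the 48 members, 30 had more than 1 counted probe, and in 19 of these all probes had a mean of the same sign. The median range between the probes of a gene was 0.22 for the members and 0.19 for all 5064 such gene names. In 4 of the 30, every probe was below 0 on both arrays, as in 7.76% of the 5064 gene names. The members whose probes differed by more than 1 in log2 were RAB5B, described above, and RAB39B, a neuronal RAB encoded on the X chromosome. The RAB39B probe A_24_P408603, from 154141198 to 154141257 of hg18, had signals of 125 in control and 203 in miR-204 RNA on the first array, and 98.1 and 132 on the dye-swap array. The probe A_23_P159877, which lies 2069 bases away, from 154143267 to 154143326, had 274 and 130 on the first array, and 204 and 187 on the dye-swap array. All these signals were well above background, yet the former probe was higher in the miR-204 RNA on both arrays, at 0.69 and 0.41, and the latter lower on both, at -1.07 and -0.12. The gene mean of -0.02 is therefore an average of opposed probes.

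**Figure D3:**
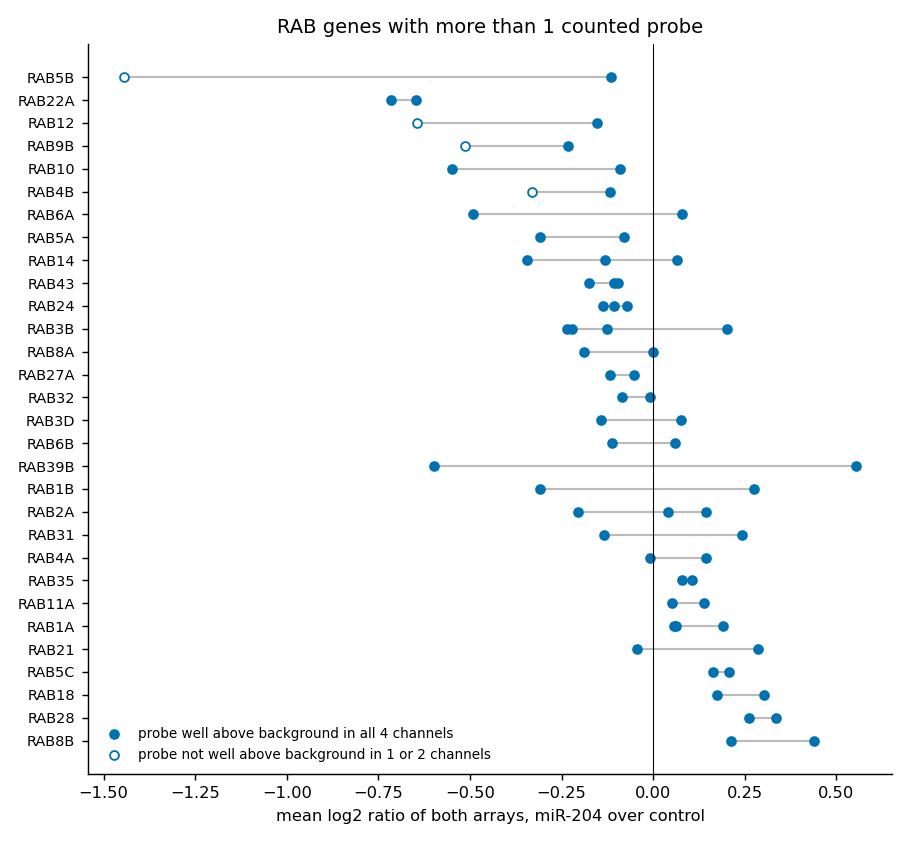
Mean log2 ratio of both arrays for each counted probe of the 30 RAB genes with more than 1, ordered by the gene mean, with open circles for probes not well above background in 1 or 2 channels. The RAB22A probes lie together at -0.72 and -0.65, whereas those of RAB5B and RAB39B lie more than 1 apart.

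By compartment, the early endosome group had 10 of 11 members counted, with a median of -0.17. In it 2 genes were called lower at 1.5-fold (RAB5B and RAB22A), 3 were below 0 on both arrays and 2 above. Of all counted gene names 2.06% were called lower, 22.8% were below 0 on both arrays and 24.5% above. Over probes detected in all 4 channels RAB5B was at -0.12 and not called, and RAB22A, at -0.68, had the lowest mean of the group. The highest was RAB5C, an isoform of RAB5B, with ratios of 0.18 and 0.19. The recycling endosome group had 3 of 4 members counted. They lay between RAB11B at -0.08 and RAB11A at 0.09, closely related RABs that return cargo to the cell surface, with opposite signs on the arrays in both.

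The late endosome and lysosome group had 6 of 7 members counted, with a median of -0.12. The lowest was RAB9B, of transport from late endosomes to the Golgi, at -0.29 and -0.46, and the highest was RAB32, of melanosomes and other lysosome-related organelles, at -0.13 and 0.04. The RAB9B value includes a probe not well above background in 1 channel. Over probes detected in all 4 channels RAB9B was at -0.23 and RAB7A, which directs late endosomes to lysosomes, at -0.24, and with normexp and loess RAB9B was at -0.20. None of the 6 was above 0 on both arrays, where 24.5% of all gene names were. Below 0 on both were 2, where 22.8% of all were. In the endoplasmic reticulum and Golgi group, 13 of 16 members were counted, with a median of -0.02, and 10 of the 13 had opposite signs on the arrays, beside the 52.7% of all gene names. RAB33B, which works at the Golgi and in autophagosome formation, was lowest, at -0.03 and -0.62. RAB18, of lipid droplets and the endoplasmic reticulum, was highest, at 0.52 and -0.05. Both extremes of this group rested on 1 array. RAB36, also placed here, had 0.29 and 0.10. RAB6C is nearly identical in sequence to RAB6A, so that their probes may share signal, and of the 3 counted RAB43 probes 2 overlap.

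The exocytosis group, which includes RAB3, RAB8, RAB10, RAB13 and RAB27, had 11 of 14 members counted and a median of -0.10. In this group 6 members were below 0 on both arrays, 2 were above, and RAB13 was called, beside 22.8%, 24.5% and 2.06% of all gene names. The 6 include RAB12, which was placed here although it is known for traffic between recycling endosomes and lysosomes. RAB8B, which moves vesicles to the plasma membrane, had the highest mean of the whole family, 0.33. Its ratio was 0.61 on the first array but 0.04 on the other, where it lay among the rest of the members. All 3 members of the RAB40 group were counted, with a median of -0.34. RAB40B and RAB40C were below 0 on both arrays, and RAB40A was at -0.39 and 0.02. The cilium group held RAB23, a regulator of Hedgehog signalling, at 0.28 and 0.11, and RAB28, of photoreceptor cilia, at 0.59 and 0.005. None of the 3 RAB40 and 2 cilium genes was called. Medians of groups of this size are descriptions of the genes listed.

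**Figure D4:**
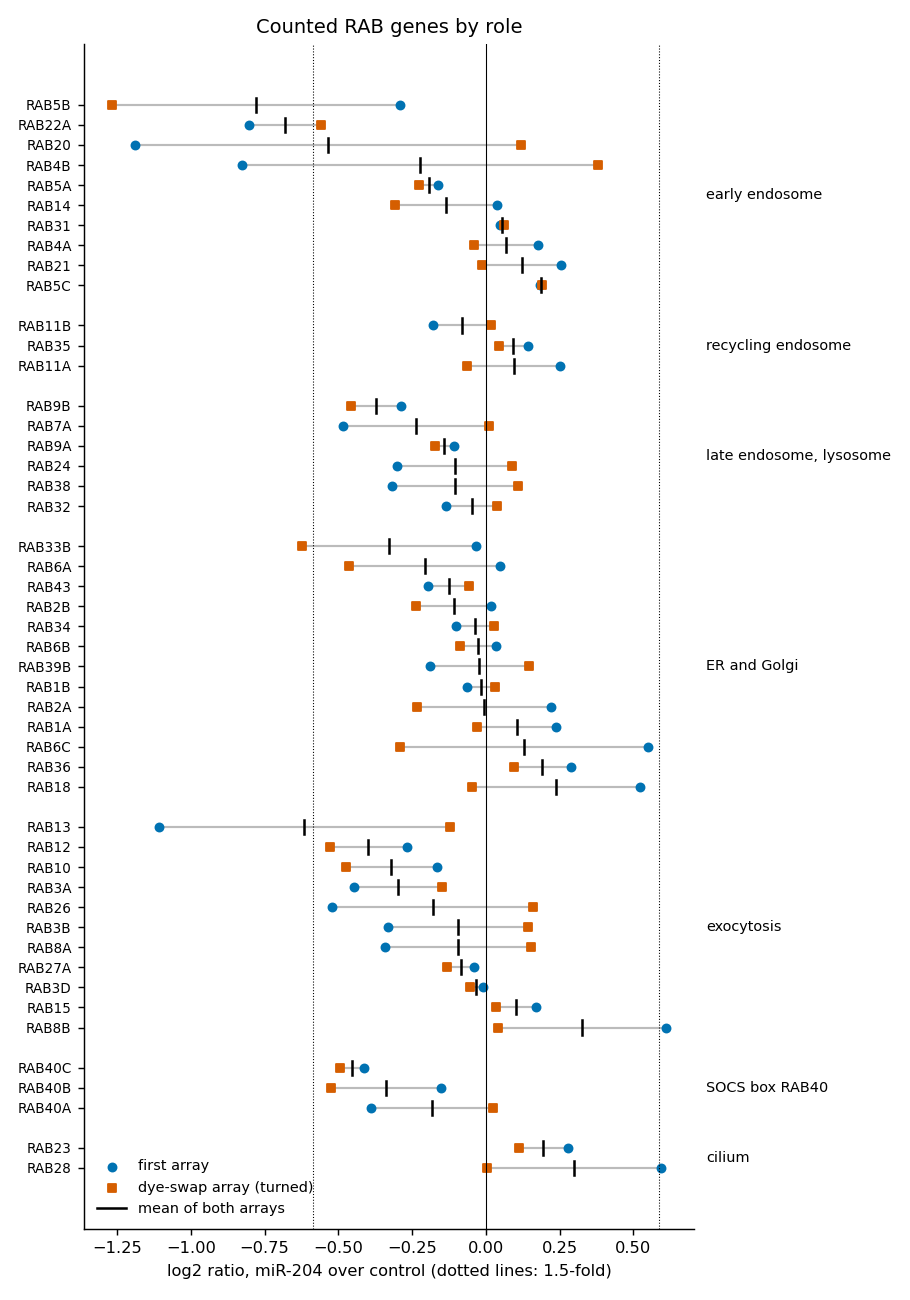
Log2 ratio of miR-204 over control on the first array (blue circles), the dye-swap array (orange squares) and in the mean (black bars) for the 48 counted RAB genes, ordered within 7 role groups, with dotted lines at 1.5-fold in either direction. In the setting of the report the arrays lie far apart for RAB4B, RAB5B, RAB13 and RAB20 and close together for RAB40C and RAB5C.

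The proteins that load, switch and read RAB GTPases were described in the same way from a list of 128 genes, of which 116 gene names were counted. In this list 31 were below 0 on both arrays and 21 above, where 22.8% and 24.5% of all gene names were. Its median was -0.05, beside 0.002 over all gene names, with means from -0.65 to 0.74. At 1.5-fold 0 were lower and 1 was higher, where 2.06% and 1.44% of all gene names were, so that the list did not exceed the array as a whole. The gene was MYO5C, a myosin motor that binds RAB8 and RAB10 and carries secretory vesicles, with ratios of 0.99 and 0.48. None of the 6 dissociation inhibitors and escort proteins, 29 GTPase activating proteins or 24 exchange factors was called. Their medians were 0.04, 0.03 and -0.07, and that of the 54 effectors and tethers was -0.09. Named after their values were seen, CHM, the escort protein that presents new RABs for prenylation, had 0.93 and 0.20, LRRK2, a kinase of several RABs, had 0.68 and 0.33, and the exchange factor DENND1B had -0.53 and -0.61. None of these 3 was called.

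The calls did not pass under every setting. With normexp background correction and loess in place of the processed signals and quantile normalization, which changes both steps at once, no RAB gene passed 1.5-fold, where 0.334% of all gene names were lower. RAB22A was then at -0.51, its probes at -0.68 and -0.35, and of the 23159 probes 17 were as low on both arrays as A_23_P79889 and 267 as low as A_32_P179258. RAB10 was at -0.34 with this correction, its downstream probe at -0.54, and RAB40B at -0.32. RAB5B was at -0.09 and RAB40C at -0.11. Ratios of probes detected in all 4 channels could shrink as well, as that of A_32_P179258 did. Over all 12 alternatives RAB22A stayed below 0, between -0.80 and -0.49, RAB10 between -0.55 and -0.17, and RAB40B between -0.53 and -0.15.

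**Figure D5:**
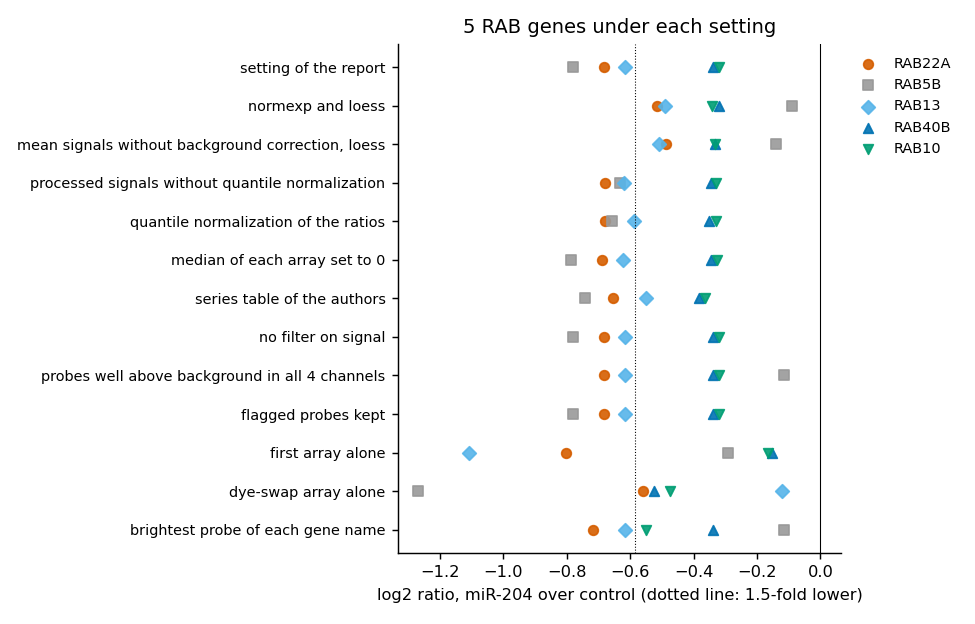
Mean log2 ratio of miR-204 over control for RAB22A, RAB5B, RAB13, RAB40B and RAB10 in the setting of the report and under 12 alternatives, with a dotted line at 1.5-fold lower. RAB22A stays between -0.80 and -0.49, whereas RAB5B moves from -0.78 to -0.09 with normexp and loess.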

How the data were processed

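RNA of HEK-293 cells with a miR-204 mimic and with scramble oligos was measured on 2 arrays with exchanged dyes, counted as 1 replicate. Per the methods, images were read by the authors with Feature Extraction 9.5.3.1. Its processed signals, deposited as intensity values, are already corrected for background and dye. The mean and background signals, also deposited as intensity values, were used in the alternatives. A series table deposited by the authors, with log2 ratios quantile normalized per the methods, served as an alternative.

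Control spots and 128 probes with an outlier flag, none of them a RAB probe, were left out, and no RAB probe was saturated. Spots of a probe were averaged, log2 processed signals were quantile normalized over the 4 channels with limma 3.58.1 in R 4.3.3, and the dye-swap ratio was turned. Normexp used an offset of 50. Gene means and counts were made in Python 3.11.15 with pandas 2.3.3. The steps were tested on simulated data with changes larger than 2-fold in probes detected in all 4 channels, checked per probe at 2-fold. That test does not cover gene calls at 1.5-fold or probes near background. Probe positions were copied from the files (hg18). Precision is limited by the number of arrays.

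The members, role groups and gene lists were chosen with earlier results of these data known. Named are the 3 reported targets, members past 1.5-fold, the 6 lowest and 6 highest, members whose probes differ by over 1, the extremes of each role group, and listed regulators past 1.5-fold. The alternatives changed the background correction, normalization, deposited values, filter, flags, arrays, threshold, gene summary and test. A list of markers of other cell types is not reported here.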

Additional observations from a re-analysis of the deposited data

How the results depend on the processing

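Lower by at least 1.5-fold were 3 RAB genes as reported, beside 2.06% of all gene names. With normexp and loess 0 were lower, and 0 with mean signals without background correction, beside 0.334% and 0.355% of all. When the fold had to pass on each array 0 were lower, and no share of all gene names is given for that rule. Otherwise there were between 2 and 4. The 4 were reached without a filter on signal (of 58) and on the first array alone (of 48), beside 2.88% and 8.38% of all. With the filter that asked for signal above background in all 4 channels 2 of 46 were left, RAB13 and RAB22A, beside 0.99% of all gene names. On the first array alone 2 were higher by 1.5-fold (RAB8B and RAB28), beside 6.14% of all gene names. On that array 2 were lower by 2-fold (RAB13 and RAB20), beside 2.06% of all. On the dye-swap array alone 1 was lower by 2-fold (RAB5B), beside 0.759% of all. With quantile normalization of the ratios 3 members were above 0 on both arrays, a count for which no share of all gene names is given. The median of the members was -0.034 on the dye-swap array alone and below 0 under every alternative run. RAB22A was -0.49 without background correction, and RAB10 was -0.55 with the brightest probe of each gene. Of 21 named genes, 13 kept their direction under all alternatives that gave a value, 7 had the other direction under 1 (RAB11A, RAB11B, RAB18, RAB20, RAB32, RAB33B and RAB40A) and RAB39B under 3. The 21 include the members with the lowest and highest means, and no share of all gene names is given beside the 13. Each array alone is among the alternatives. A gene with opposite signs on the arrays had to change direction there, and a gene with the same sign on both could not. Of the 7, only RAB33B changed elsewhere, at 0.03 without a filter on signal. The median of the endoplasmic reticulum and Golgi group kept its sign under 10 of 12 alternatives and that of the late endosome group under 11. The causes were not tested. By the methods' t-test with 2-fold 0 RAB genes were lower, before and after Benjamini-Hochberg adjustment. It compares the channels of arrays counted as 1 replicate, so its p-values do not measure the spread between cultures. No RAB gene was lower by 2-fold without the test either, so this 0 adds nothing to that count. Each ratio already pairs both RNAs within 1 array, but no paired test over replicates was possible because both arrays are 1 replicate. RAB4B, RAB5B, RAB9B, RAB12, RAB20 and RAB40C each have a counted probe not well above background in at least 1 channel.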
